A study of Mus musculus with 12 samples.

Results

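The proteasome genes were followed across renal cortex of mice with and without acute kidney injury (AKI) and with and without the glucocorticoid receptor (GR) in tubular epithelium. Members were the genes whose symbol starts with Psm, a letter a to g and a digit, on probe sets annotated to exactly 1 symbol. The rule found 56 such probe sets for 50 genes, of 19938 genes measured on the array, and where a gene had several the probe set with the highest mean over 12 arrays was used. Renal cortex RNA was hybridised to 12 Affymetrix mouse arrays, 3 in each of 4 groups. GR-deficient mice carried floxed alleles of nr3c1, the GR gene, together with Pax8-Cre, a recombinase driven by a promoter active in renal tubular epithelium, and control mice carried the floxed alleles without Cre. GR-deficient AKI and control AKI cortices were taken 24 h after an intramuscular glycerol injection, a model in which damaged muscle releases myoglobin that reaches the kidney. GR-deficient healthy and control healthy cortices came from a separate cohort that received no injection. A difference between genotypes therefore includes any effect of Pax8-Cre, and a difference between AKI and healthy mice also contains whatever set the cohorts apart. Replicates carry numbers in the labels but are not said to be separate animals. The p-values therefore reflect spread among these arrays alone, possibly technical spread, and the number of arrays limits the precision. All values are log2 expression values, and differences are on the log2 scale with the standard error (SE) of the limma fit.

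The proteasome degrades proteins that carry ubiquitin chains. Its 20S core is a barrel in which rings of alpha subunits gate the entry and rings of beta subunits hold the cutting sites, and a 19S cap recognises ubiquitin, removes it and unfolds the substrate, the whole being called the 26S proteasome. In cells exposed to interferon gamma, and in many blood cells, 3 inducible catalytic subunits replace the constitutive ones to form the immunoproteasome, and other activators can take the place of the 19S cap. In kidney tubules proteasomes clear damaged and misfolded proteins.

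The 50 members comprised 31 constitutive subunits of the 26S proteasome and 19 genes outside it. The 31 were 7 alpha ring subunits, 4 beta ring subunits without catalytic activity, 3 constitutive catalytic subunits, 6 ATPases and 11 other subunits of the 19S cap. The 19 were 3 inducible catalytic subunits, 2 forms specific to testis or thymus, 3 chaperones of 19S assembly, 4 chaperones of 20S assembly, 4 activators, the inhibitor-like Psmf1, and 2 genes matched by name only. The activator Psme2b shared its probe set with Psme2 and was not measured alone. All 50 Entrez identifiers were found in the RefSeq table under the same symbol.

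Of the 50 members, 42 had a promoter, from 250 bases before to 50 bases after the gene start, in the RefSeq table (GRCm38.p6). Those of 3 genes are shown because they stand for the patterns below. They are Psma5 and Psmd14, which had the largest AKI responses of the alpha ring and of the 19S cap in control mice, and Psmb9, an inducible subunit that did not pass. Capitals mark CCAAT, the letters of the box bound by the factor NF-Y, on either strand, so that ATTGG is a match on the other strand.
Psma5, chr3:108256676-108256975, plus strand: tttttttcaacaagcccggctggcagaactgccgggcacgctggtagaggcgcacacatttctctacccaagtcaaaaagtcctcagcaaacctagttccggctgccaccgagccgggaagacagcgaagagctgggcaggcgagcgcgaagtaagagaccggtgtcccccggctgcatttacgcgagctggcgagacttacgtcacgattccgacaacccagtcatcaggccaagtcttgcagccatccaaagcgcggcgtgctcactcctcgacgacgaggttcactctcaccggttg
Psmd14, chr2:61711444-61711743, plus strand: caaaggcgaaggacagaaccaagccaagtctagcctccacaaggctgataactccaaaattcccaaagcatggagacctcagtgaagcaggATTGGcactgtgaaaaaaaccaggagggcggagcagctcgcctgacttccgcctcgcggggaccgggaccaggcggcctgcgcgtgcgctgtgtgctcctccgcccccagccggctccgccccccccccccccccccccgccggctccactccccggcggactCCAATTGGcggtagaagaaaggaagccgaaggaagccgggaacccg
Psmb9, chr17:34187281-34187580, minus strand: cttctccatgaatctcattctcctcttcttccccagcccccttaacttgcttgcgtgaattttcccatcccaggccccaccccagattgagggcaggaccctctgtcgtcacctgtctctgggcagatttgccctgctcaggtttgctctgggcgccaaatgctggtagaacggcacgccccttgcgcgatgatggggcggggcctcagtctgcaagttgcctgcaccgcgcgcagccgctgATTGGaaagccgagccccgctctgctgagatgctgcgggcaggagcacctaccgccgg
The Psma5 window held 0 matches, that of Psmd14 held 3 and that of Psmb9 held 1.

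The other motif shown is the core of the antioxidant response element, TGACNNNGC, which is bound by the stress factors Nfe2l2 and Nfe2l1. The stretches around it in the promoters of the constitutive catalytic subunits Psmb5 and Psmb6 are shown with the core in capitals. Psmb7, the remaining constitutive catalytic subunit, was among the members without a listed promoter and was not searched.
Psmb5, within chr14:54617946-54618245, minus strand: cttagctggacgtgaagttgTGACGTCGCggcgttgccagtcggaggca
Psmb6, within chr11:70525107-70525406, plus strand: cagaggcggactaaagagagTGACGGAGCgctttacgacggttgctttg
The core began at position -47 relative to the gene start in Psmb5 and at position -9 in Psmb6. Over both strands it was present in 6 of 42 member promoters, or 14.3%, against 13.99% of the promoters of 27025 genes. The holders were Psmb5, Psmb6, Psmc6, Psmd9, Psmd12 and Psme4. CCAAT was present in 16 of 42 member promoters, or 38.1%, against 41.1% of all genes, and in 10 of 25 constitutive 26S promoters. By role it was present in 5 of the 7 alpha ring, 2 of 5 19S ATPase and 2 of 9 other 19S promoters. The interferon-stimulated response element core, GAAANNGAA, was present in 7 of 42, or 16.7%, against 9.76% of all genes, and in 0 of 3 inducible catalytic subunits. No match of one motif overlapped a match of another. These matches describe letters in this window and are not measured binding sites.

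The targeted gene Nr3c1 measured 8.10, 7.96 and 7.87 in GR-deficient AKI mice and 8.18, 8.13 and 8.21 in GR-deficient healthy mice, against 8.82, 8.89 and 8.86 in control AKI mice and 9.65, 9.48 and 9.52 in control healthy mice. Its values were lower in both GR-deficient groups. Whole cortex also holds cells outside the tubular epithelium. The narrowest spreads over genes were those of GR-deficient healthy replicate 1 (SD 1.96) and control AKI replicate 1 (SD 1.88), against 1.99 to 2.06 on the other 10 arrays. Of the calls followed through alternative fits, those that end without either array are marked as such below. The other named calls, among them those of Psma1, Psma2, Psmd12, Psmg1 and all genes outside the members, were not followed in this way. For the proteasome a further array stood apart. GR-deficient AKI replicate 1 held the highest of its group's 3 values for 30 of the 31 constitutive 26S subunits. The median deviation of these 31 genes from the control healthy mean was 0.60 on that array and 0.34 and 0.30 on the other GR-deficient AKI arrays. It was between -0.02 and 0.13 in GR-deficient healthy mice, between 0.68 and 0.73 in control AKI mice and between -0.06 and 0.04 in control healthy mice.

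After AKI 29 of the 31 constitutive 26S proteasome genes passed as higher in control mice, and 12 of 31 did in GR-deficient mice. In GR-deficient mice 14 of 50 members were higher after AKI and 0 lower, against 3.29% of all genes higher and 1.35% lower, with a median difference of 0.33 over the members and -0.03 over all genes. In control mice 34 of 50 were higher and 0 lower, against 13.6% of all genes higher and 15.1% lower, with a median difference of 0.56 over the members and 0.00 over all genes. The median difference over all 31 constitutive 26S subunits was 0.37 in GR-deficient mice and 0.66 in control mice. All 31 of these genes lie in the upper quartile of mean signal, where 22.5% of 4985 genes were higher after AKI in control mice. Of the 19 members outside the 26S, 2 rose in GR-deficient mice and 5 in control mice. A gene was called where its p-value from limma, adjusted over all 19938 genes, was below 0.05.

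**Figure D1:**
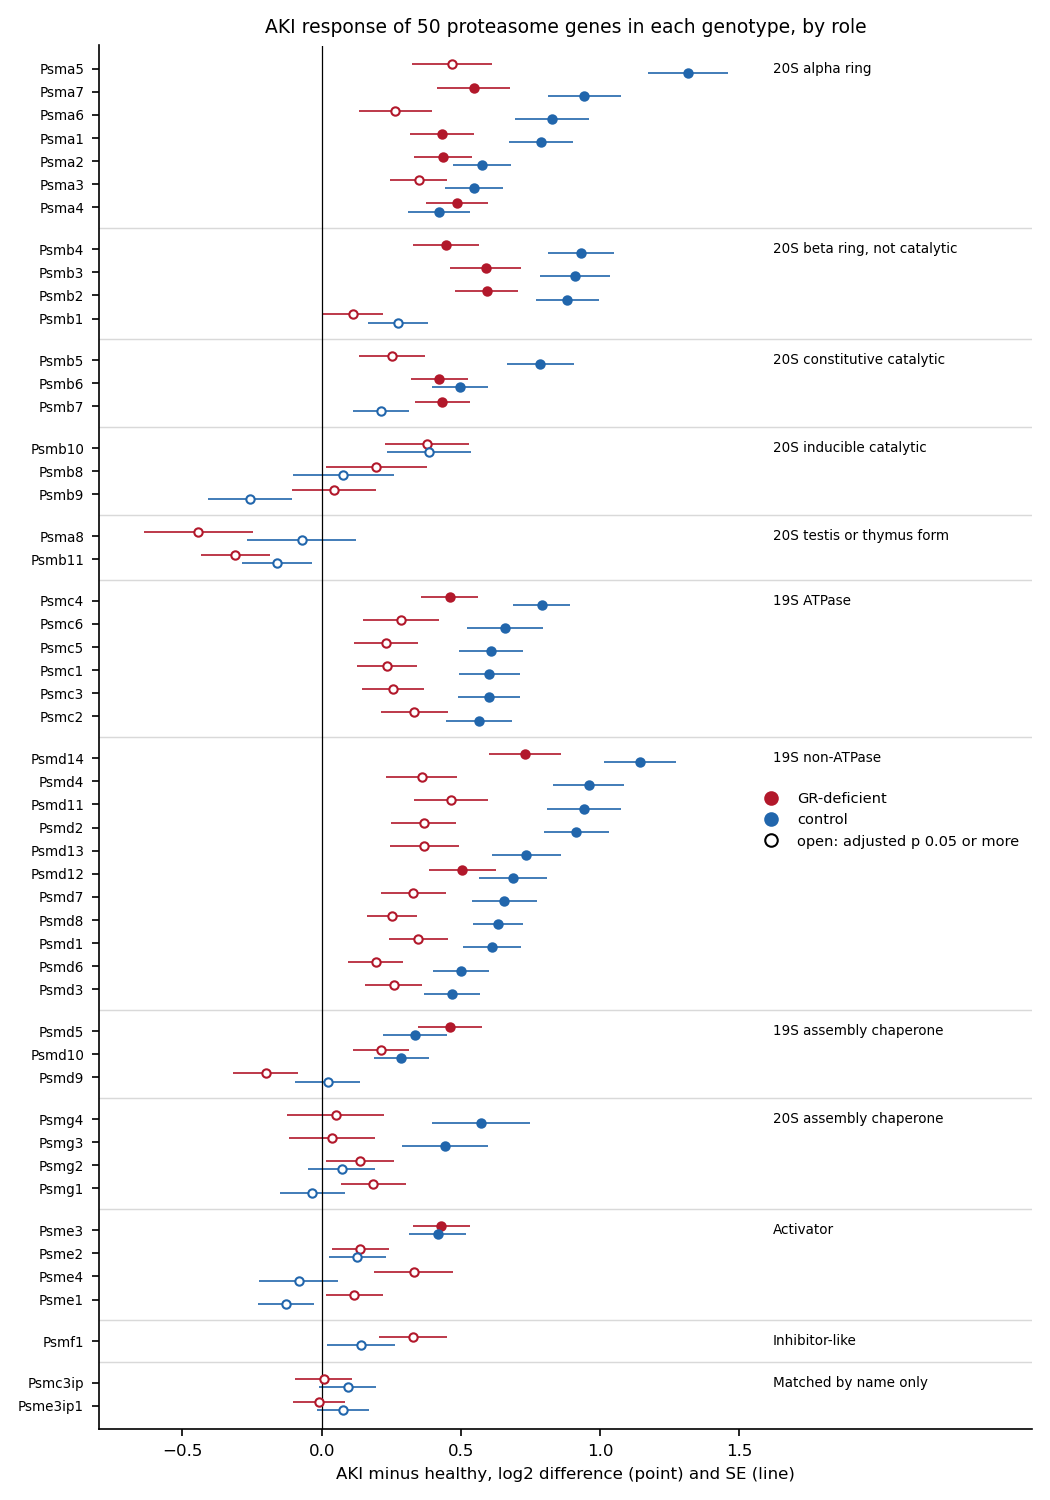
AKI minus healthy difference (log2, point) and its SE (line) for the 50 members by role, GR-deficient above control for each gene, with open points for an adjusted p of 0.05 or more. In control mice the constitutive 26S subunits span 0.21 to 1.31, and in GR-deficient mice 0.11 to 0.73.

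The GR-deficient count rests on single arrays. It was 1 without GR-deficient AKI replicate 1, 8 without replicate 2 and 9 without replicate 3, and 8, 3 and 9 without GR-deficient healthy replicates 1, 2 and 3. It was 8 with cyclic loess and 35 with array weights. The median over the 26S subunits fell to 0.28 without GR-deficient AKI replicate 1 and lay between 0.35 and 0.42 without any other array of these groups. The control count lay between 30 and 38 under every alternative tried.

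In bulk cortex, fewer cells of a type and less RNA per cell cannot be told apart, and markers of some other cell types moved with these results. For scale, 3.29% of all genes rose and 1.35% fell in GR-deficient mice, and 13.6% rose and 15.1% fell in control mice. Of 5 neutrophil markers 0 passed after AKI in GR-deficient mice with limma, where 2 had an unadjusted p below 0.05, and 5 rose in control mice, with a mean level of 5.51 to 5.82 in GR-deficient AKI mice, 5.37 to 5.51 in GR-deficient healthy mice, 6.68 to 6.96 in control AKI mice and 5.18 to 5.52 in control healthy mice. Of 6 proximal tubule markers 1 fell in GR-deficient mice and 6 fell in control mice, with a mean level of 11.85 to 12.14 in GR-deficient AKI mice, 12.07 to 12.48 in GR-deficient healthy mice, 10.63 to 11.02 in control AKI mice and 12.60 to 12.63 in control healthy mice. The interaction passed for 5 of 5 neutrophil and 6 of 6 proximal tubule markers. Over all genes it passed with a smaller value for 4.06% and with a larger one for 7.39%. Of 6 general leukocyte markers, among them Ptprc, 0 passed in any of the 5 contrasts, with at most 3 at an unadjusted p below 0.05. Likewise 0 of 6 T and B lymphocyte, 0 of 4 dendritic cell and 0 of 4 skeletal muscle markers passed in any contrast. In control mice 1 of 2 collecting duct and 1 of 2 podocyte markers fell and 1 of 3 adrenal markers rose, with 0 passing in GR-deficient mice. Of 6 monocyte and macrophage markers 2 rose in GR-deficient mice, and 2 rose and 2 fell in control mice. Their mean level was 8.03 to 8.70 in GR-deficient AKI mice, 7.97 to 8.19 in GR-deficient healthy mice, 8.60 to 8.98 in control AKI mice and 7.89 to 8.16 in control healthy mice. The median difference over the 6 was -0.05 in GR-deficient mice and -0.01 in control mice, where single differences reached from -1.30 to 3.92. The markers that rose were Cd14 and Cd68, with differences of 1.39 for Cd14 and 1.28 for Cd68 in GR-deficient mice and 3.92 for Cd14 and 2.85 for Cd68 in control mice, and the interaction passed for 3 of the 6, 2 of them smaller and 1 larger in GR-deficient mice. Of 3 loop and distal tubule markers 2 fell in control mice, and of 4 endothelial markers 2 rose and 1 fell there, with 0 passing in GR-deficient mice, where 1 of each list had an unadjusted p of less than 0.05. The part of these markers in the proteasome differences was not tested.

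Of the 7 alpha ring genes, which form the gated ends of the core, 4 rose after AKI in GR-deficient mice and 7 in control mice. Among all genes 3.29% rose in GR-deficient mice and 13.6% in control mice. Psma5 measured 9.33, 8.70 and 8.90 in GR-deficient AKI mice, against 8.66, 8.44 and 8.43 in GR-deficient healthy mice. It measured 9.74, 9.69 and 9.51 in control AKI mice, against 8.41, 8.29 and 8.30 in control healthy mice. The control AKI arrays lay far above the control healthy ones, and the GR-deficient AKI arrays lay in between and above their own healthy arrays. The AKI difference was 0.47 ± 0.14 (adjusted p = 0.0803) in GR-deficient mice and 1.31 ± 0.14 (adjusted p = 6.15e-06) in control mice. The control value, 2.49-fold, was the largest of the 50 members. A further probe set annotated to Psma5 gave 0.35 in GR-deficient mice and 1.22 in control mice. The Psma7 values were 11.03, 10.68 and 10.89 in GR-deficient AKI mice and 10.60, 10.26 and 10.10 in GR-deficient healthy mice. They were 11.22, 11.07 and 11.05 in control AKI mice and 10.19, 10.14 and 10.18 in control healthy mice. The groups did not overlap between AKI and healthy mice in either genotype, and Psma7 rose by 0.55 ± 0.13 (adjusted p = 0.0290) in GR-deficient mice and 0.94 ± 0.13 (adjusted p = 5.89e-05) in control mice.

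Psma4 was an alpha ring gene with about equal responses. GR-deficient mice had Psma4 values of 11.82, 11.57 and 11.62 after AKI, against 11.02, 11.23 and 11.29 in the healthy group. Control mice had 11.62, 11.61 and 11.69 after AKI, against 11.26, 11.08 and 11.32 in the healthy group. The AKI arrays were above the healthy ones in both genotypes, with differences of 0.49 ± 0.11 (adjusted p = 0.0229) in GR-deficient mice and 0.42 ± 0.11 (adjusted p = 0.00957) in control mice, and the call was lost without GR-deficient healthy replicate 1 in GR-deficient mice (adjusted p = 0.0736) and without control healthy replicate 2 in control mice. Psma1 and Psma2 rose in both genotypes, while Psma3 and Psma6 passed in control mice and not in GR-deficient mice, with GR-deficient differences of 0.35 (adjusted p = 0.0723) and 0.26 (adjusted p = 0.310).

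Among beta ring subunits without catalytic activity, Psmb2, Psmb3 and Psmb4 rose in both genotypes. For Psmb2 the arrays read 10.79, 10.37 and 10.57 in GR-deficient AKI mice, against 10.002, 10.06 and 9.89 in GR-deficient healthy mice. The readings were 10.85, 10.64 and 10.76 in control AKI mice, against 9.88, 9.89 and 9.84 in control healthy mice. AKI and healthy arrays did not overlap in either genotype. Psmb2 was higher by 0.59 ± 0.11 (adjusted p = 0.00869) in GR-deficient mice and by 0.88 ± 0.11 (adjusted p = 3.03e-05) in control mice. Psmb3 measured 11.04, 10.70 and 10.84 in GR-deficient AKI mice, against 10.47, 10.09 and 10.26 in GR-deficient healthy mice. It measured 11.29, 10.97 and 11.03 in control AKI mice, against 10.21, 10.20 and 10.16 in control healthy mice. Psmb3 rose by 0.59 ± 0.13 (adjusted p = 0.0161) in GR-deficient mice and 0.91 ± 0.13 (adjusted p = 5.92e-05) in control mice, again without overlap. The Psmb4 values were 10.60, 10.36 and 10.55 in GR-deficient AKI mice and 10.31, 10.01 and 9.86 in GR-deficient healthy mice. They were 10.83, 10.76 and 10.70 in control AKI mice and 9.83, 9.87 and 9.79 in control healthy mice. Psmb4 rose by 0.45 ± 0.12 (adjusted p = 0.0473) in GR-deficient mice and by 0.93 ± 0.12 (adjusted p = 2.72e-05) in control mice, and its arrays did not overlap either. Psmb1 did not pass in either genotype, at 0.11 (adjusted p = 0.638) in GR-deficient mice and 0.27 (adjusted p = 0.0750) in control mice.

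Of the 3 constitutive catalytic subunits, 2 rose in each genotype, Psmb6 and Psmb7 in GR-deficient mice and Psmb5 and Psmb6 in control mice. The shares of all genes that rose were 3.29% in GR-deficient mice and 13.6% in control mice. Psmb5 carries the chymotrypsin-like site. GR-deficient mice had Psmb5 values of 10.36, 10.22 and 10.29 after AKI, against 10.30, 9.96 and 9.86 in the healthy group. Control mice had 10.80, 10.66 and 10.52 after AKI, against 9.88, 9.86 and 9.88 in the healthy group. In control mice every AKI array was above every healthy array, while in GR-deficient mice healthy replicate 1 lay among the AKI arrays. The difference was 0.25 ± 0.12 (adjusted p = 0.279) in GR-deficient mice and 0.79 ± 0.12 (adjusted p = 0.000137) in control mice.

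Psmb6 carries the caspase-like site. For Psmb6 the arrays read 11.77, 11.58 and 11.74 in GR-deficient AKI mice, against 11.36, 11.25 and 11.21 in GR-deficient healthy mice. The readings were 11.82, 11.65 and 11.73 in control AKI mice, against 11.18, 11.18 and 11.34 in control healthy mice. AKI arrays were above healthy arrays in both genotypes, by 0.42 ± 0.10 (adjusted p = 0.0288) in GR-deficient mice and by 0.50 ± 0.10 (adjusted p = 0.00148) in control mice. Psmb7 carries the trypsin-like site. Psmb7 measured 11.59, 11.53 and 11.62 in GR-deficient AKI mice, against 10.99, 11.25 and 11.19 in GR-deficient healthy mice. It measured 11.65, 11.54 and 11.67 in control AKI mice, against 11.39, 11.34 and 11.49 in control healthy mice. Its AKI arrays were above the healthy ones in both genotypes, with the GR-deficient healthy arrays the lowest. The difference of 0.43 ± 0.10 (adjusted p = 0.0240) passed in GR-deficient mice and that of 0.21 ± 0.10 (adjusted p = 0.140) in control mice did not. Without GR-deficient healthy replicate 1 the GR-deficient difference was 0.36 (adjusted p = 0.0687). The test of these responses against each other did not pass either (0.22, adjusted p = 0.388).

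Of the 3 inducible subunits that replace them, 0 passed after AKI in either genotype with limma, and 1, Psmb10, had an unadjusted p below 0.05 in each. Among all genes 3.29% rose and 1.35% fell in GR-deficient mice, and 13.6% rose and 15.1% fell in control mice. Psmb8 takes the place of Psmb5. The Psmb8 values were 7.87, 8.29 and 7.89 in GR-deficient AKI mice and 8.27, 7.78 and 7.41 in GR-deficient healthy mice. They were 7.58, 7.75 and 7.81 in control AKI mice and 7.60, 7.78 and 7.52 in control healthy mice. The arrays of AKI and healthy mice overlapped in both genotypes, with GR-deficient healthy replicates ranging widely, and the differences were 0.20 ± 0.18 (adjusted p = 0.621) in GR-deficient mice and 0.08 ± 0.18 (adjusted p = 0.844) in control mice. The 95% interval of the control response was -0.31 to 0.46 for Psmb8 and 0.53 to 1.04 for Psmb5, and the difference between both genes was not tested.

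Psmb9 takes the place of Psmb6. GR-deficient mice had Psmb9 values of 7.93, 8.07 and 7.94 after AKI, against 8.09, 7.98 and 7.74 in the healthy group. Control mice had 8.05, 7.40 and 7.55 after AKI, against 7.88, 8.06 and 7.83 in the healthy group. In control AKI mice replicate 1 lay within the healthy range and the others below it. The differences were 0.05 ± 0.15 (adjusted p = 0.915) in GR-deficient mice and -0.26 ± 0.15 (adjusted p = 0.260) in control mice, so Psmb9 was among the members with a negative value in control mice without passing. Psmb10 takes the place of Psmb7. For Psmb10 the arrays read 8.68, 8.71 and 8.61 in GR-deficient AKI mice, against 8.64, 8.24 and 7.99 in GR-deficient healthy mice. The readings were 8.30, 8.29 and 8.54 in control AKI mice, against 8.004, 8.18 and 7.80 in control healthy mice. Control AKI arrays were above control healthy ones, and GR-deficient healthy replicate 1 lay within the range of the AKI arrays. The differences were 0.38 ± 0.15 (adjusted p = 0.191) in GR-deficient mice and 0.39 ± 0.15 (adjusted p = 0.0713) in control mice. Psmb9 and Psmb8 lie beside the peptide transporter genes Tap1 and Tap2 on chromosome 17, and neither transporter gene passed in any comparison.

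**Figure D2:**
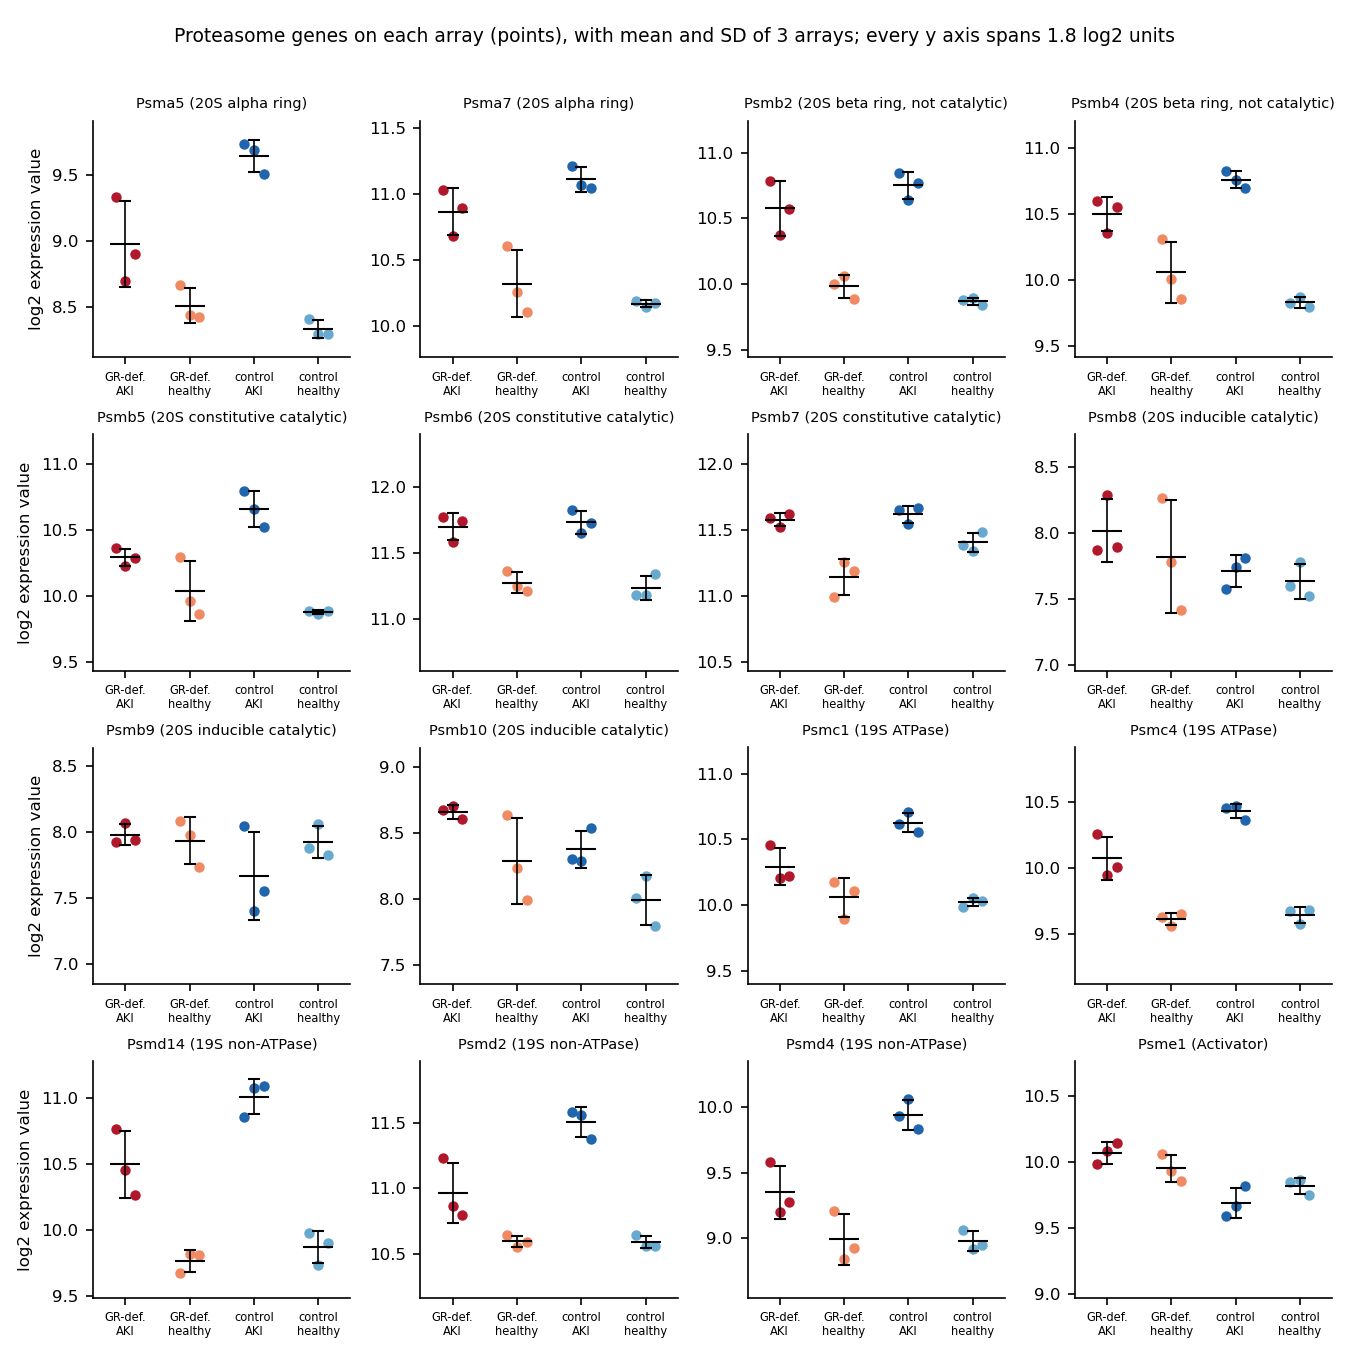
Log2 expression values of 16 members on each array (points), with mean and SD of 3 arrays, in GR-deficient AKI, GR-deficient healthy, control AKI and control healthy mice. Control AKI arrays are highest for Psma5, Psmb5, Psmd2, Psmd4 and Psmd14, while Psmb8 and Psmb9 overlap between AKI and healthy mice.

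The tissue-specific forms gave no call. Psma8, an alpha subunit of testis, differed by -0.44 ± 0.20 (adjusted p = 0.243) in GR-deficient mice and -0.07 ± 0.20 (adjusted p = 0.866) in control mice. Psma8 measured 5.004, 4.80 and 5.04 in GR-deficient AKI mice, against 5.73, 5.57 and 4.87 in GR-deficient healthy mice. It measured 5.35, 4.88 and 4.97 in control AKI mice, against 5.23, 5.27 and 4.90 in control healthy mice. AKI and healthy arrays overlapped in both genotypes. Psmb11, the thymic catalytic subunit, differed by -0.31 ± 0.13 (adjusted p = 0.198) in GR-deficient mice and -0.16 ± 0.13 (adjusted p = 0.430) in control mice. The Psmb11 values were 5.88, 5.63 and 5.87 in GR-deficient AKI mice and 6.04, 6.13 and 6.14 in GR-deficient healthy mice. They were 6.20, 5.75 and 5.82 in control AKI mice and 6.07, 6.19 and 5.99 in control healthy mice. GR-deficient AKI arrays lay below GR-deficient healthy ones, and the control groups overlapped.

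The ATPases of the 19S cap, which unfold substrates and thread them into the core, rose together in control mice, where 6 of 6 passed with differences between 0.56 and 0.79. In GR-deficient mice 1 of 6 passed, against 3.29% of all genes that rose there and 13.6% that rose in control mice. All 6 GR-deficient differences lay between 0.23 and 0.46. The 1 that passed was Psmc4. GR-deficient mice had Psmc4 values of 10.26, 9.95 and 10.01 after AKI, against 9.63, 9.56 and 9.65 in the healthy group. Control mice had 10.46, 10.47 and 10.37 after AKI, against 9.68, 9.58 and 9.68 in the healthy group. AKI arrays were above healthy arrays in both genotypes, by 0.46 ± 0.10 (adjusted p = 0.0197) in GR-deficient mice and by 0.79 ± 0.10 (adjusted p = 3.11e-05) in control mice. For Psmc1 the arrays read 10.46, 10.21 and 10.22 in GR-deficient AKI mice, against 10.18, 9.89 and 10.11 in GR-deficient healthy mice. The readings were 10.62, 10.71 and 10.56 in control AKI mice, against 9.99, 10.05 and 10.03 in control healthy mice. Psmc1 showed the same order with a narrow gap in GR-deficient mice, at 0.23 ± 0.11 (adjusted p = 0.268) in GR-deficient mice and 0.60 ± 0.11 (adjusted p = 0.000561) in control mice. A further probe set annotated to Psmc1 gave 0.15 in GR-deficient mice and 0.65 in control mice.

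Of the other 19S subunits, 11 of 11 rose in control mice, against 13.6% of all genes, with differences between 0.47 and 1.14. In GR-deficient mice 2 of 11 rose, against 3.29% of all genes, and differences lay between 0.19 and 0.73. Psmd14 is the deubiquitinase that cuts ubiquitin chains off substrates. Psmd14 measured 10.77, 10.46 and 10.27 in GR-deficient AKI mice, against 9.67, 9.82 and 9.81 in GR-deficient healthy mice. It measured 10.86, 11.08 and 11.10 in control AKI mice, against 9.97, 9.74 and 9.90 in control healthy mice. The arrays of AKI and healthy mice were well apart in both genotypes. It rose by 0.73 ± 0.13 (adjusted p = 0.00579) in GR-deficient mice and by 1.14 ± 0.13 (adjusted p = 9.15e-06) in control mice, or 1.66-fold in GR-deficient mice and 2.21-fold in control mice. Of 11 calls of the GR-deficient comparison that were followed through 14 alternatives each, that of Psmd14 was kept in all of them and the other 10 were not. The other call was Psmd12, a scaffold subunit, at 0.51 in GR-deficient mice (adjusted p = 0.0295) and 0.69 in control mice.

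Psmd2 is a large scaffold subunit that docks ubiquitin shuttle proteins. The Psmd2 values were 11.23, 10.87 and 10.80 in GR-deficient AKI mice and 10.64, 10.56 and 10.60 in GR-deficient healthy mice. They were 11.58, 11.56 and 11.38 in control AKI mice and 10.64, 10.57 and 10.56 in control healthy mice. GR-deficient AKI replicates 2 and 3 lay just above their healthy arrays, while control AKI arrays lay far above theirs. The differences were 0.37 ± 0.12 (adjusted p = 0.0947) in GR-deficient mice and 0.91 ± 0.12 (adjusted p = 2.74e-05) in control mice. A further probe set annotated to Psmd2 gave 0.54 in GR-deficient mice and 0.83 in control mice. Psmd4 is a ubiquitin receptor of the cap. GR-deficient mice had Psmd4 values of 9.58, 9.20 and 9.27 after AKI, against 9.21, 8.84 and 8.93 in the healthy group. Control mice had 9.93, 10.06 and 9.83 after AKI, against 9.06, 8.92 and 8.95 in the healthy group. In GR-deficient mice AKI and healthy arrays overlapped by 1 healthy array, and in control mice they did not overlap. Psmd4 differed by 0.36 ± 0.13 (adjusted p = 0.134) in GR-deficient mice and by 0.96 ± 0.13 (adjusted p = 3.80e-05) in control mice. For Psmd7 the arrays read 10.20, 9.84 and 9.84 in GR-deficient AKI mice, against 9.55, 9.56 and 9.78 in GR-deficient healthy mice. The readings were 10.44, 10.53 and 10.42 in control AKI mice, against 9.85, 9.69 and 9.87 in control healthy mice. Psmd7, the partner of Psmd14 in the cap, differed by 0.33 ± 0.12 (adjusted p = 0.139) in GR-deficient mice and 0.66 ± 0.12 (adjusted p = 0.000559) in control mice, with no overlap in either genotype.

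**Figure D3:**
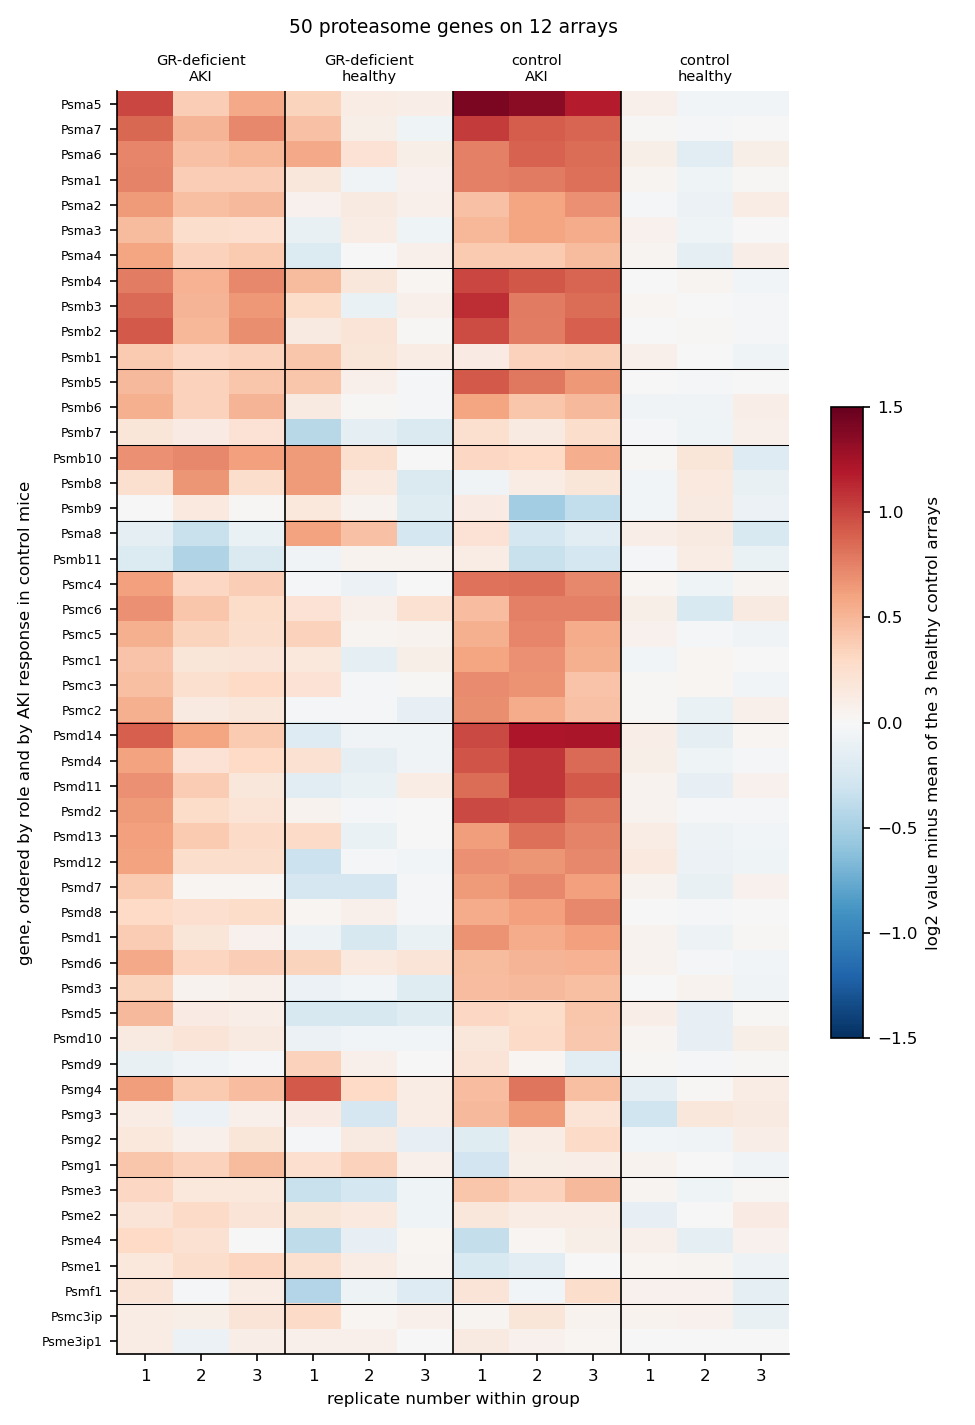
Log2 value of 50 members on 12 arrays minus the mean of the 3 control healthy arrays, with genes in order of role and groups in the order GR-deficient AKI, GR-deficient healthy, control AKI and control healthy. The 31 constitutive 26S subunits are red in control AKI mice, paler in GR-deficient AKI mice with replicate 1 the darkest, and near white in both healthy groups.

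Of 7 assembly chaperones 1 rose after AKI in GR-deficient mice, against 3.29% of all genes, and 4 in control mice, against 13.6%. Of the 3 that build the 19S base, 1 rose in GR-deficient mice and 2 in control mice. Psmd5 measured 10.06, 9.70 and 9.67 in GR-deficient AKI mice, against 9.33, 9.33 and 9.39 in GR-deficient healthy mice. It measured 9.88, 9.85 and 9.98 in control AKI mice, against 9.68, 9.45 and 9.59 in control healthy mice. Psmd5 was higher by 0.46 ± 0.12 (adjusted p = 0.0364) in GR-deficient mice and by 0.34 ± 0.12 (adjusted p = 0.0422) in control mice, AKI arrays lying above healthy ones. The Psmd10 values were 8.77, 8.83 and 8.77 in GR-deficient AKI mice and 8.54, 8.60 and 8.59 in GR-deficient healthy mice. They were 8.80, 8.92 and 9.04 in control AKI mice and 8.68, 8.51 and 8.72 in control healthy mice. Psmd10 differed by 0.21 ± 0.10 (adjusted p = 0.271) in GR-deficient mice and 0.29 ± 0.10 (adjusted p = 0.0429) in control mice, in each genotype without overlap. Psmd9 did not pass, at -0.20 in GR-deficient mice and 0.02 in control mice. The control calls of Psmd5 and Psmd10 each ended in 7 of 14 alternatives, among them every fit without a control array for Psmd5. The GR-deficient call of Psmd5 ended without GR-deficient healthy replicate 1 (adjusted p = 0.0843).

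Of the 4 chaperones that build the 20S core, 0 rose in GR-deficient mice, with 0 at an unadjusted p below 0.05, and 2 in control mice. Among all genes 3.29% rose in GR-deficient mice and 13.6% rose in control mice. GR-deficient mice had Psmg4 values of 7.92, 7.68 and 7.76 after AKI, against 8.22, 7.59 and 7.40 in the healthy group. Control mice had 7.76, 8.10 and 7.74 after AKI, against 7.16, 7.31 and 7.41 in the healthy group. Psmg4 had overlapping GR-deficient groups, with healthy replicate 1 the highest of all 12 arrays, and separate control groups. It differed by 0.05 ± 0.18 (adjusted p = 0.923) in GR-deficient mice and 0.57 ± 0.18 (adjusted p = 0.0226) in control mice. For Psmg3 the arrays read 6.93, 6.73 and 6.90 in GR-deficient AKI mice, against 6.94, 6.57 and 6.94 in GR-deficient healthy mice. The readings were 7.31, 7.46 and 7.02 in control AKI mice, against 6.52, 6.99 and 6.96 in control healthy mice. Psmg3 had the same pattern of overlap, and it differed by 0.04 ± 0.15 (adjusted p = 0.938) in GR-deficient mice and 0.44 ± 0.15 (adjusted p = 0.0438) in control mice. Without control AKI replicate 1 the control difference of Psmg3 was 0.42 (adjusted p = 0.0810). Their partners Psmg1 and Psmg2 had control differences of -0.03 and 0.07.

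Of 4 activators that can replace the 19S cap, only the nuclear Psme3 passed after AKI, in both genotypes. By comparison 3.29% of all genes rose in GR-deficient mice and 13.6% in control mice. Psme3 measured 10.49, 10.34 and 10.34 in GR-deficient AKI mice, against 9.84, 9.91 and 10.12 in GR-deficient healthy mice. It measured 10.60, 10.52 and 10.66 in control AKI mice, against 10.22, 10.11 and 10.20 in control healthy mice. Its AKI arrays were above healthy arrays in each genotype, by 0.43 ± 0.10 (adjusted p = 0.0288) in GR-deficient mice and by 0.42 ± 0.10 (adjusted p = 0.00583) in control mice. Without GR-deficient healthy replicate 1 the GR-deficient difference of Psme3 was 0.37 (adjusted p = 0.0814). Psme1 and Psme2 form the activator that interferon gamma induces. The Psme1 values were 9.98, 10.08 and 10.14 in GR-deficient AKI mice and 10.06, 9.93 and 9.86 in GR-deficient healthy mice. They were 9.59, 9.67 and 9.82 in control AKI mice and 9.85, 9.86 and 9.75 in control healthy mice. The Psme1 arrays overlapped between AKI and healthy mice in both genotypes, with differences of 0.12 ± 0.10 (adjusted p = 0.596) in GR-deficient mice and -0.13 ± 0.10 (adjusted p = 0.445) in control mice. Psme2 differed by 0.14 in GR-deficient mice and 0.13 in control mice, and Psme4 by 0.33 in GR-deficient mice (adjusted p = 0.229) and -0.08 in control mice.

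Psmf1, which inhibits the core in the test tube, did not pass in either genotype. GR-deficient mice had Psmf1 values of 9.56, 9.33 and 9.47 after AKI, against 8.93, 9.28 and 9.16 in the healthy group. Control mice had 9.56, 9.32 and 9.62 after AKI, against 9.43, 9.43 and 9.23 in the healthy group. GR-deficient AKI arrays were above the GR-deficient healthy ones, and the control groups overlapped, with differences of 0.33 ± 0.12 (adjusted p = 0.162) in GR-deficient mice and 0.14 ± 0.12 (adjusted p = 0.491) in control mice. The 2 genes matched by name only are no subunits. For Psmc3ip the arrays read 6.77, 6.75 and 6.86 in GR-deficient AKI mice, against 6.94, 6.69 and 6.73 in GR-deficient healthy mice. The readings were 6.71, 6.84 and 6.72 in control AKI mice, against 6.71, 6.72 and 6.55 in control healthy mice. Psmc3ip, a factor of meiotic recombination, differed by 0.01 in GR-deficient mice and 0.09 in control mice. Psme3ip1 measured 7.99, 7.80 and 7.98 in GR-deficient AKI mice, against 7.95, 7.95 and 7.88 in GR-deficient healthy mice. It measured 8.02, 7.94 and 7.91 in control AKI mice, against 7.89, 7.89 and 7.87 in control healthy mice. Psme3ip1, a nuclear protein that binds Psme3, differed by -0.01 in GR-deficient mice and 0.08 in control mice. Neither passed.

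Between genotypes in AKI mice, 12 of the 31 constitutive 26S subunits passed as lower in GR-deficient mice and 19 did not pass. Of 50 members 12 were lower and 2 higher in GR-deficient AKI mice than in control AKI mice, against 7.34% of all genes lower and 10.02% higher, and the median difference was -0.20 over the members and -0.04 over all genes. Of the 12, 10 were among the 17 subunits of the 19S cap and 2 among the 14 of the 20S core. The median over the 31 constitutive subunits was -0.29. This comparison and the AKI response of control mice share the control AKI arrays, so they are not independent of each other.

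Calls of 9 members were followed through 14 alternatives each, and those of Psma5, Psmd4, Psmd2 and Psmd7 were kept in all of them. Psma5 differed by -0.67 ± 0.14 (adjusted p = 0.00425), Psmd4 by -0.59 ± 0.13 (adjusted p = 0.00462), Psmd2 by -0.54 ± 0.12 (adjusted p = 0.00469) and Psmd7 by -0.50 ± 0.12 (adjusted p = 0.00766). In each, every GR-deficient AKI array listed above lay below every control AKI array. Psmd14 differed by -0.51 ± 0.13 (adjusted p = 0.0124) and Psmc4 by -0.36 ± 0.10 (adjusted p = 0.0246), also without overlap. Psmb5 was the only catalytic subunit that passed, at -0.37 ± 0.12 (adjusted p = 0.0459), and Psmc1 differed by -0.33 ± 0.11 (adjusted p = 0.0472). Without control AKI replicate 1 Psmb5 differed by -0.30 (adjusted p = 0.127) and Psmc1 by -0.34 (adjusted p = 0.0680). The call of Psmb5 ended in 5 of 14 alternatives and that of Psmc1 in 7, among them the mean of the probe sets of a gene. A further probe set annotated to Psmc1 gave -0.28. Psmd1, Psmd3, Psmd8 and Psmd11 completed the list, with differences between -0.31 and -0.53.

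Both genes that were higher in GR-deficient AKI mice lie outside the 26S. Psme1 was higher by 0.38 ± 0.10 (adjusted p = 0.0184). Psmg1, a 20S assembly chaperone, measured 9.29, 9.22 and 9.35 in GR-deficient AKI mice, against 8.59, 8.96 and 8.97 in control AKI mice, and was higher by 0.44 ± 0.12 (adjusted p = 0.0164). Psmg1 measured 9.12, 9.22 and 8.95 in GR-deficient healthy mice, against 8.93, 8.87 and 8.82 in control healthy mice, also without overlap. The healthy difference was 0.22 (adjusted p = 0.529) and the difference in AKI response between genotypes was 0.22 (adjusted p = 0.477). The inducible subunits Psmb8, Psmb9 and Psmb10 differed by 0.31, 0.31 and 0.29 with adjusted p of 0.302, 0.193 and 0.239. The count of 14 fell to 5 without GR-deficient AKI replicate 3, to 7 without GR-deficient AKI replicate 2 and to 7 without control AKI replicate 2, was 11 without control AKI replicate 1 and was 25 with array weights.

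**Figure D4:**
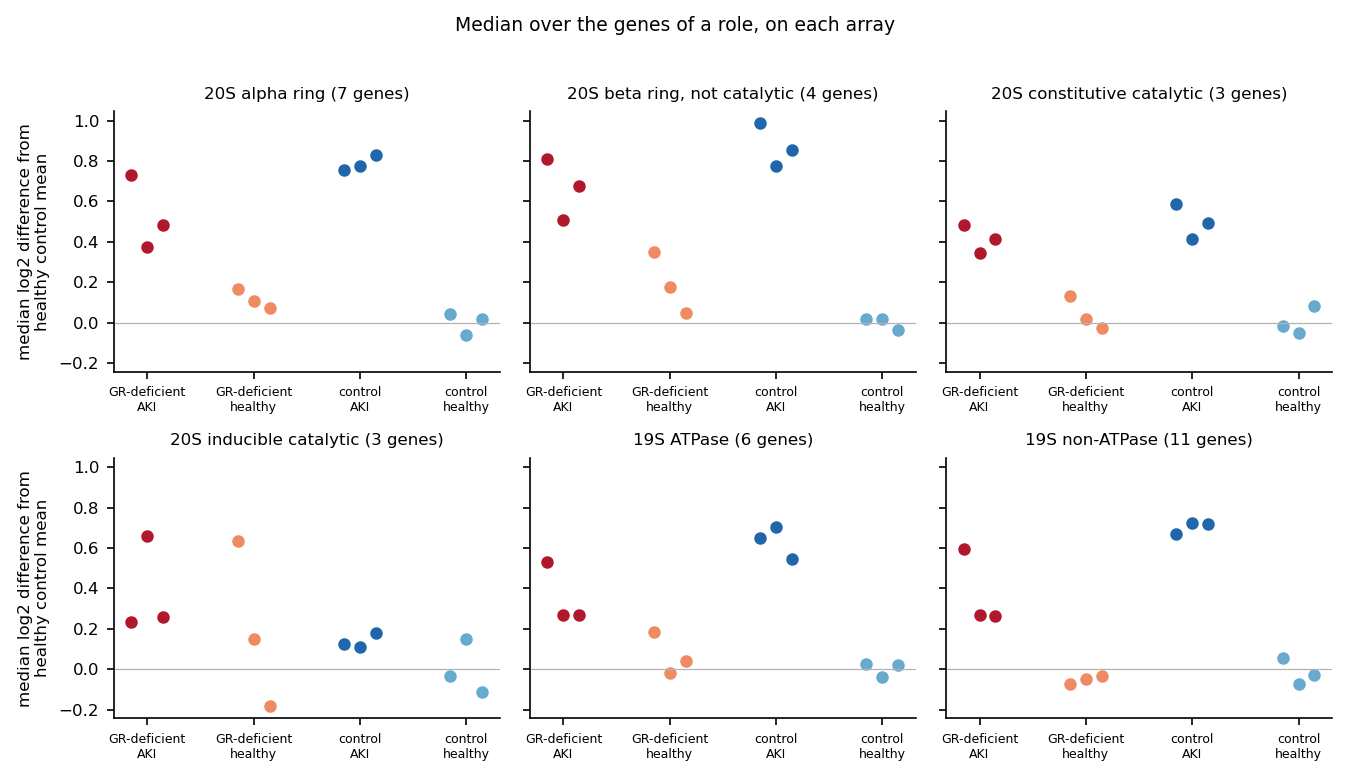
Median over the genes of a role of the log2 difference from the control healthy mean, 1 point per array, in GR-deficient AKI, GR-deficient healthy, control AKI and control healthy mice. For the 19S non-ATPase subunits the GR-deficient AKI arrays lie at 0.26 to 0.60 and the control AKI arrays at 0.67 to 0.72. For the inducible catalytic subunits the GR-deficient AKI arrays lie at 0.24 to 0.66, within reach of the GR-deficient healthy arrays at -0.18 to 0.64 and above the control AKI arrays at 0.11 to 0.18 and the control healthy arrays at -0.11 to 0.15.

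The question whether GR deficiency alters the AKI response itself is addressed by the interaction, which compares the response of GR-deficient mice with that of control mice. The response was smaller in GR-deficient mice for 29 of 31 constitutive 26S subunits, with a median of -0.35, and for 38 of 50 members, with a median of -0.25 against -0.03 over all genes. Over all genes the interaction was below 0 for 10854 of 19938. Members were measured on the same arrays, so these counts are not counts of independent replicates. A single gene test passed for 3 members, all smaller in GR-deficient mice, and for 0 larger, against 4.06% of all genes smaller and 7.39% larger. The 3 were Psma5 at -0.85 ± 0.20 (adjusted p = 0.0137), Psmd4 at -0.60 ± 0.18 (adjusted p = 0.0439) and Psmd2 at -0.55 ± 0.17 (adjusted p = 0.0461). A further 12 of the 31 had an unadjusted p below 0.05 without passing, among them Psmb5 at -0.53 ± 0.17 (adjusted p = 0.0576) and Psmd14 at -0.41 ± 0.18 (adjusted p = 0.186).

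Psma5 passed the interaction under all 20 alternatives, and its further probe set gave -0.87. A further probe set annotated to Psmd2 gave -0.29, against -0.55 for the one used. Psmd2 ended in 12 of the 20 and Psmd4 in 10, among them the fits without control AKI replicate 1 or GR-deficient healthy replicate 1. The count of 3 became 1 without GR-deficient AKI replicate 2 or 3, GR-deficient healthy replicate 1, control AKI replicate 2 or any control healthy array, and with arrays centred on their median. It became 10 with quantile normalization, 6 with cyclic loess, 12 with array weights, 5 with a trended and robust prior and 6 without dim genes. All 5 neutrophil markers had a smaller and all 6 proximal tubule markers a larger value in the same test. Across the 50 members the responses of both genotypes, which share no arrays, had a Pearson r of 0.70 and a slope through the origin of 0.52, GR-deficient on control. Over all genes r was 0.55 and the slope 0.26, and within the 31 constitutive 26S subunits r was 0.54 and the slope 0.51. These values describe genes measured on the same arrays, which are not independent replicates.

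**Figure D5:**
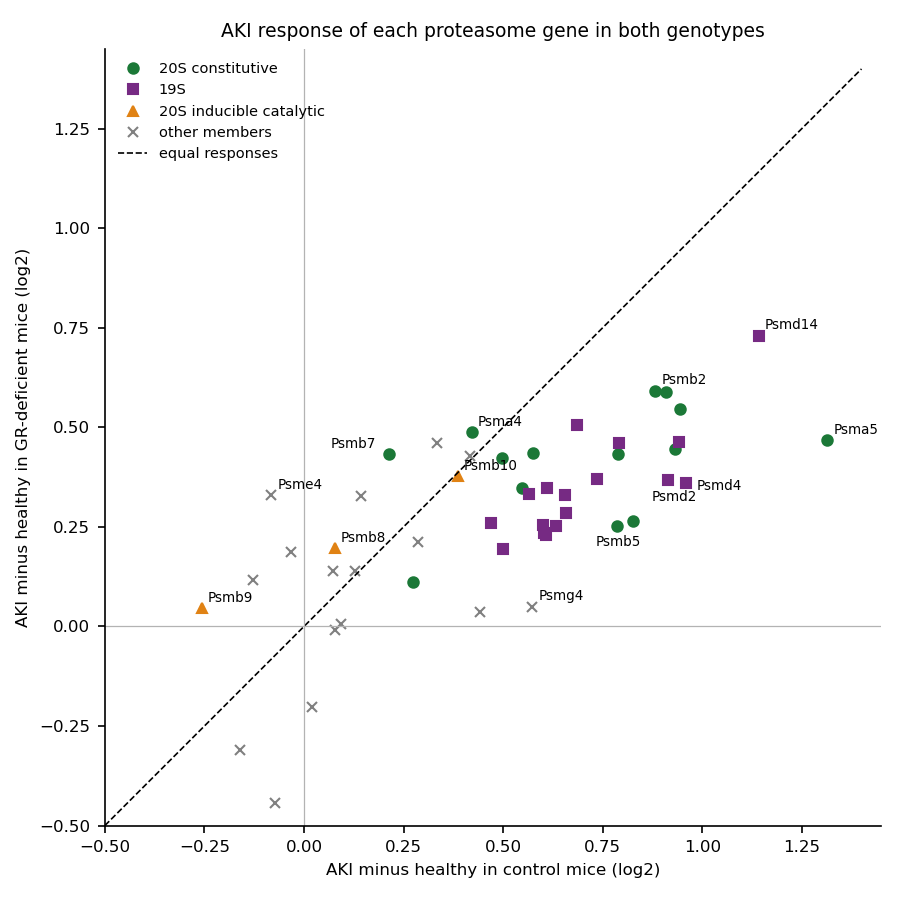
AKI minus healthy difference (log2) of each member in GR-deficient mice (vertical) and in control mice (horizontal), with a dashed line of equal responses. Of 31 constitutive 26S subunits 29 lie below the line, Psma4 and Psmb7 above it, and Psma5 lies farthest to the right.

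In healthy mice no member passed between genotypes with limma. Of 50 members 0 were higher and 0 lower, against 0.0351% and 0.110% of all genes, and 5 had an unadjusted p below 0.05. These were Psma6 (0.29), Psmb1 (0.24), Psmb7 (-0.26), Psmd6 (0.23) and Psmg4 (0.44). The median was 0.04 over the members and 0.04 over the 31 constitutive subunits. The 95% interval of Psma5 was -0.13 to 0.48, and that of Psmd14 was -0.38 to 0.18.

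Of 14 factors measured that bind or assemble the proteasome, 2 rose after AKI in GR-deficient mice, against 3.29% of all genes, and 8 in control mice, against 13.6%. None of the 14 fell with limma in either genotype, and the median difference was 0.25 in GR-deficient mice and 0.34 in control mice. Pomp, which assembles the 20S core, was higher by 0.45 ± 0.10 (adjusted p = 0.0178) in GR-deficient mice and by 0.90 ± 0.10 (adjusted p = 6.15e-06) in control mice. The shuttle Rad23b differed by 0.29 ± 0.11 (adjusted p = 0.149) in GR-deficient mice and 0.80 ± 0.11 (adjusted p = 3.93e-05) in control mice, and Zfand5, a zinc finger protein that binds the proteasome, by 0.19 ± 0.13 (adjusted p = 0.489) in GR-deficient mice and 0.86 ± 0.13 (adjusted p = 0.000151) in control mice. The interaction passed for these 3 genes, each smaller in GR-deficient mice. Zfand2a, a stress-induced zinc finger protein, rose by 0.95 ± 0.25 (adjusted p = 0.0432) in GR-deficient mice and by 1.14 ± 0.25 (adjusted p = 0.00253) in control mice. Usp14, a deubiquitinase of the cap, differed by 0.37 ± 0.14 (adjusted p = 0.152) in GR-deficient mice and 0.80 ± 0.14 (adjusted p = 0.000406) in control mice.

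Of 9 genes for control of proteasome genes and for protein removal from the endoplasmic reticulum, 1 rose in GR-deficient mice, against 3.29% of all genes. In control mice 3 of the 9 rose and 1 fell, against 13.6% of all genes higher and 15.1% lower. Nfe2l2 rose by 0.54 ± 0.14 (adjusted p = 0.0390) in GR-deficient mice and by 0.61 ± 0.14 (adjusted p = 0.00333) in control mice, while Nfe2l1, which drives proteasome genes when the proteasome is inhibited, gave -0.22 (adjusted p = 0.228) in GR-deficient mice and 0.04 (adjusted p = 0.827) in control mice. Vcp, which extracts ubiquitinated proteins from membranes, gave 0.23 in GR-deficient mice and 0.55 in control mice. The ubiquitin ligase Syvn1 gave 0.40 in GR-deficient mice and 0.75 in control mice, and Herpud1, a membrane protein of this disposal route, gave -0.24 in GR-deficient mice and -0.56 in control mice. These 3 genes passed in control mice and not in GR-deficient mice, and their interaction did not pass. Of 4 ubiquitin supply genes measured, 1 rose in each genotype, against 3.29% of all genes in GR-deficient mice and 13.6% in control mice. It was Sqstm1, a ubiquitin-binding autophagy receptor, at 0.59 ± 0.12 (adjusted p = 0.0156) in GR-deficient mice and 1.15 ± 0.12 (adjusted p = 5.96e-06) in control mice.

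For partners of the immunoproteasome the shares called were near those of all genes in control mice, where 13.6% of all genes rose and 15.1% fell. In GR-deficient mice 3.29% of all genes rose and 1.35% fell. Of 8 genes of MHC class I antigen processing, 0 passed in GR-deficient mice with limma, where 2 had an unadjusted p below 0.05, and 1 fell in control mice. It was B2m, the light chain of class I molecules, at 0.07 in GR-deficient mice and -0.57 in control mice (adjusted p = 0.0171), and it was higher in GR-deficient AKI mice than in control AKI mice by 0.55 (adjusted p = 0.0336). Of 10 interferon gamma response genes, 1 rose in GR-deficient mice, and 1 rose and 1 fell in control mice. Irf8, an interferon regulatory factor, differed by 0.40 ± 0.11 (adjusted p = 0.0499) in GR-deficient mice and 0.48 ± 0.11 (adjusted p = 0.00310) in control mice, and the chemokine Cxcl9 by -0.19 ± 0.30 (adjusted p = 0.796) in GR-deficient mice and -1.03 ± 0.30 (adjusted p = 0.0181) in control mice.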

How the data were processed

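Renal cortex RNA was measured on 12 Affymetrix arrays, 3 in each of 4 groups taken from the labels. The deposited values are log2 expression values. Per the submitters' processing notes they come from robust multichip averaging (RMA), and the packages named are oligo and affy, whose versions were not given in the sources used here. Such averaging adjusts background, brings arrays to one distribution and summarises probes, which can compress small differences. A log base is not stated in the file, and the range of values is that of a log2 scale. No further normalization or filter was applied.

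Of 35556 probe sets, 21789 carried exactly 1 gene symbol in a platform annotation that can be old, giving 19938 genes with the probe set of highest mean kept for each. A model of 4 group means was fitted to all genes in R 4.3.3 with limma 3.58.1 (lmFit, then eBayes with its default prior), with 8 residual and 6.26 prior degrees of freedom. In it 5 contrasts were tested, with two-sided p-values adjusted by Benjamini-Hochberg over all genes and a threshold of 0.05. Every adjusted p in the text is from this fit. The fit was tested on simulated data.

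Values on every array are given for the catalytic subunits, for the 2 members with the smallest p for AKI in control mice in each other role, for up to 10 members with the smallest p that pass another contrast and for up to 3 that go against the majority; Psmg1 was added after its values were seen. The members, roles and gene lists were chosen from general knowledge with earlier results of these data known. Of the other lists, up to 4 genes with the smallest p are named, plus Zfand2a, Nfe2l1, Tap1 and Tap2, which were named after their values were seen. Motifs were searched on both strands in RefSeq promoters with Python 3.11.15. Alternatives were quantile and cyclic loess normalization, median centring, array weights, a trended and robust prior, leaving out dim genes (lower quartile), averaging probe sets, a replicate block and leaving out each array. Protein sequences were not used here.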

Additional observations from a re-analysis of the deposited data

Results flagged for a closer look

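For 3 of 50 proteasome genes the AKI response differed between GR-deficient and control mice in a direct test of that difference with limma. All 3 were smaller in GR-deficient mice, against 4.06% of all genes smaller and 7.39% larger. Psma5 had an interaction of -0.85 ± 0.20 (adjusted p = 0.0137), GR-deficient minus control, Psmd4 one of -0.60 ± 0.18 (adjusted p = 0.0439) and Psmd2 one of -0.55 ± 0.17 (adjusted p = 0.0461). In all 3 every GR-deficient AKI array lay below every control AKI array, while the healthy groups of both genotypes overlapped for Psmd2 and Psmd4 and GR-deficient healthy arrays lay above control healthy arrays for Psma5. A further probe set annotated to Psmd2 gave an interaction of -0.29, and one annotated to Psma5 gave -0.87. The call of Psma5 was kept in all 20 alternative fits, while that of Psmd2 ended in 12 and that of Psmd4 in 10. Groups of 3 arrays are too small to test a single array against its group.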

How the results depend on the processing

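The direction of every result followed, the median of the 31 constitutive 26S subunits in healthy mice apart, was the same under all alternatives tried; that median was 0.04 and became -0.01 with array weights, with 0 members called in every fit. For AKI in GR-deficient mice the 14 calls became 8 with cyclic loess, 35 with array weights and 8 with the replicate block, and 1 to 16 without single arrays, with a median over the 26S subunits of 0.28 to 0.42. For AKI in control mice the 34 calls stayed between 30 and 38. For GR deficiency in AKI mice the 14 calls became 25 with array weights and 5 to 16 without single arrays. The 3 interaction calls became 10 with quantile normalization (median over the 26S subunits -0.46), 6 with cyclic loess, 1 with median centring, 12 with array weights, 5 with the trended and robust prior, 6 without dim genes and 1 to 4 without single arrays. The cause of these shifts was not tested. Array weights gave control AKI replicate 1 a weight of 0.18 and GR-deficient healthy replicate 1 a weight of 0.30. With the replicate block the calls were 31 for AKI in control mice, 12 for GR deficiency in AKI mice and 3 for the interaction. Same-numbered samples of 2 groups had correlations of deviations between -0.41 and 0.25. Samples with different numbers were not compared in this way, so these values cannot show whether the numbers pair samples. Medians of all genes moved by less than 0.1 under each scaling. Leaving out dim genes removed 1 member. With 3 arrays per group, the smallest member difference that passed was 0.42 for AKI in GR-deficient mice, 0.29 for AKI in control mice, -0.31 for GR deficiency in AKI mice and -0.55 for the interaction.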
